A study of Mus musculus with 8 samples.

Results

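The nuclear genes of oxidative phosphorylation (OXPHOS) were examined in mouse embryos taken whole at E8.5, that is at embryonic day 8.5. A gene was taken as a member if its symbol began with *Nduf*, *Uqcr*, *Atp5* or *Cox4* to *Cox8*, or was *Sdha*, *Sdhb*, *Sdhc*, *Sdhd*, *Cyc1* or *Cycs*, and probes were matched to symbols through their RefSeq accessions with pseudogenes left out. The rule found 128 probes of 95 genes among 55681 probes on the array, out of 98 such genes in the reference table. *Ndufb1*, *Ndufb4b* and *Ndufb4c* had no probe. The symbols were assigned to complex I (including its assembly factors), complex II, complex III, cytochrome c, complex IV and complex V. The rule itself used no measured value, but it was set with earlier results of these data known. Each of the 8 embryos carried 1 copy of the hypomorphic allele *Eed* l7Rn5-1989SB, which lowers the function of the PRC2 subunit EED, on a C57bl6/129 background, and each had a wild-type mother. Embryos differed in their fathers, which were *Eed* hypo/hypo for 4 embryos (HOM father) and *Eed* hypo/wt for the other 4 (HET father), and each group held 2 females and 2 males. The allele carries a point mutation and every embryo had the same genotype, so the *Eed* signal is no check of the labels. Per the study's methods the line also carried an *Oct4*GFP transgene, and the sires were brothers from a small number of litters. The 4 embryos of each group came from 3 fathers by the study's account, so at least 2 of them shared a father, and the labels do not give which. The p-values therefore measure the spread between embryos, and not between sires.

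Oxidative phosphorylation passes electrons from NADH (complex I) and succinate (complex II) through complex III and cytochrome c to oxygen at complex IV, and the proton gradient that is built up drives ATP synthesis at complex V. Most subunits are encoded in the nucleus and imported, and a small core is made from mitochondrial DNA, which the rule does not cover. At the stage examined the mouse embryo is starting its circulation and depends strongly on glycolysis.

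Each embryo was measured on 1 Agilent single-colour array, and the number of arrays limits the precision. The signal is given as log2 of the processed intensity minus the 75th percentile of the array, so that 0 is that percentile, and a change is the mean of HOM father embryos minus the mean of HET father embryos on this scale. Between 51.9% and 60.8% of spots were well above background on an array, and no spot was saturated. The 4 arrays of each group shared a slide of their own, so slide and father cannot be told apart in any comparison by father. In whole embryos, fewer cells of a type and less RNA per cell cannot be told apart either.

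Of the 128 member probes, 124 probes of 92 genes passed the filter on dim signals and were tested, beside 29718 of all probes. The *Cox7b2*, *Cox8b* and *Cox8c* probes were well above background on 0 of 8 arrays, and a second *Ndufaf5* probe was dim. The members were bright as a class, with quartiles of the mean signal at 3.85 and 5.74. Their median signal was 5.11, 5.27, 5.10 and 5.18 in HOM father replicates 1 to 4 and 5.31, 5.23, 5.26 and 5.20 in HET father replicates 1 to 4. The groups overlapped, because HOM father replicate 2 lay within the range of the HET father embryos while the other 3 HOM father embryos lay below it. HOM father replicate 2 had the highest signal of its group at 102 of the 124 member probes, and at 34.8% of all probes tested.

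With a HOM father the members shifted slightly downwards, and none reached the limits of the study. With the limits set at 2-fold and an adjusted p of 0.01, limma called 0 of 124 member probes, against 1.27% of all probes tested in either direction. The widest change was 1.38-fold. At an adjusted p below 0.05 with no fold limit, 30 member probes fell (24.2%), where 8.69% of all probes did, and 4 rose, where 12.3% of all probes did. The change was negative at 99 probes and positive at 25. Negative changes made up 79.8% of the member probes, 54.1% of all probes tested and 73.5% of those between the member quartiles of signal. The median change of the members was -0.12 with a range of -0.40 to 0.47, and the median over all probes tested was -0.02. At 40 member probes every HOM father embryo was below every HET father embryo (13.0% of all probes), and at 5 every one was above (14.1% of all probes).

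The change depended on signal across the whole array, so the members were also set beside probes of like brightness. Among the 2359 probes whose mean signal lay between the member quartiles, 472 fell. That share was much nearer to the 24.2% of the members than to the 8.69% of all probes tested. Of the same 2359 probes 5.38% rose, and their median change was -0.09. The difference between the share of falls among these probes and the 24.2% among the members was not tested. Probes of signal -4 to -2 had a median change of 0.07, and 2.66% of them fell. Those above 6 had a median of -0.11, and 21.5% of them fell. The split between falls and rises moved with the scaling: 90 and 1 member probes were called after scaling to the array median, 21 and 6 after quantile normalisation and 14 and 6 after cyclic loess. The median of all probes was itself -0.21 after median scaling. In the same order the member median was -0.31, -0.05 and -0.04. Falls made up 72.6%, 16.9% and 11.3% of the member probes against 62.0%, 10.4% and 7.46% of the probes between the member quartiles. This order was reversed for most single embryos left out. Without HOM father replicates 1 to 4 the shares were 6.45%, 29.0%, 5.65% and 6.45% against 8.82%, 22.5%, 8.27% and 9.54%. Without HET father replicates 1 to 4 they were 9.68%, 14.5%, 5.65% and 8.87% against 13.0%, 13.3%, 7.59% and 9.54%. They were 2.42% against 2.85% with no filter, and 2.42% against 3.56% with the replicate number as a block.

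**Figure D1:**
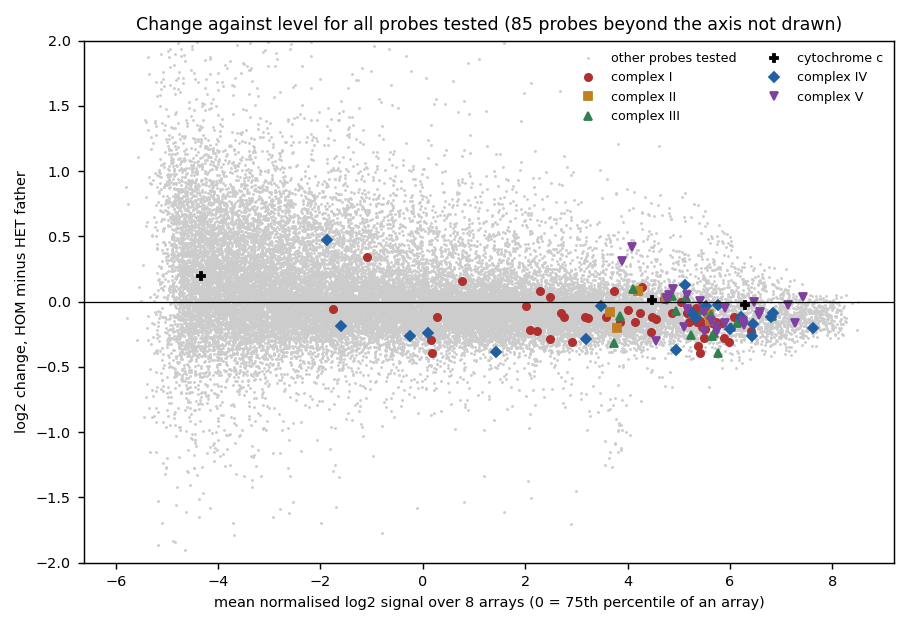
Log2 change (HOM minus HET father) against the mean normalised log2 signal over the 8 arrays for all 29718 probes tested, with the 124 OXPHOS probes marked by complex and the others in grey; 85 other probes lie beyond the axis. Most members sit at the bright end, where the grey points also lie mostly below 0.

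Leaving out 1 embryo changed the number of falls by more than 1.5 times in 7 of the 8 cases. It was 8, 7 and 8 without HOM father replicates 1, 3 and 4, and 12, 18, 7 and 11 without HET father replicates 1 to 4. Without HOM father replicate 2 it was 36, with a member median of -0.16. The falls that were called in all 8 of these fits were 6, at *Ndufa3*, *Ndufb7*, *Ndufs7*, *Cox7a1*, *Atp5d* and 1 probe of *Cox7c*, and the rises were 2, at 1 probe each of *Cox7c* and *Atp5c1*. Those 6 falls also passed under each of the 4 other scalings, as did 8 further falls. Scaling to the array median, or to the 75th percentile over probes, moved all changes downwards. These could hardly remove a fall, and each kept all 30. Quantile normalisation kept 20 falls and cyclic loess 14. Normexp background correction, not among the 4, kept 25 and lost *Ndufaf3*, which is among the 8 further falls. With no filter on dim probes, so that all probes on the array entered the adjustment, 3 falls and 2 rises passed.

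**Figure D2:**
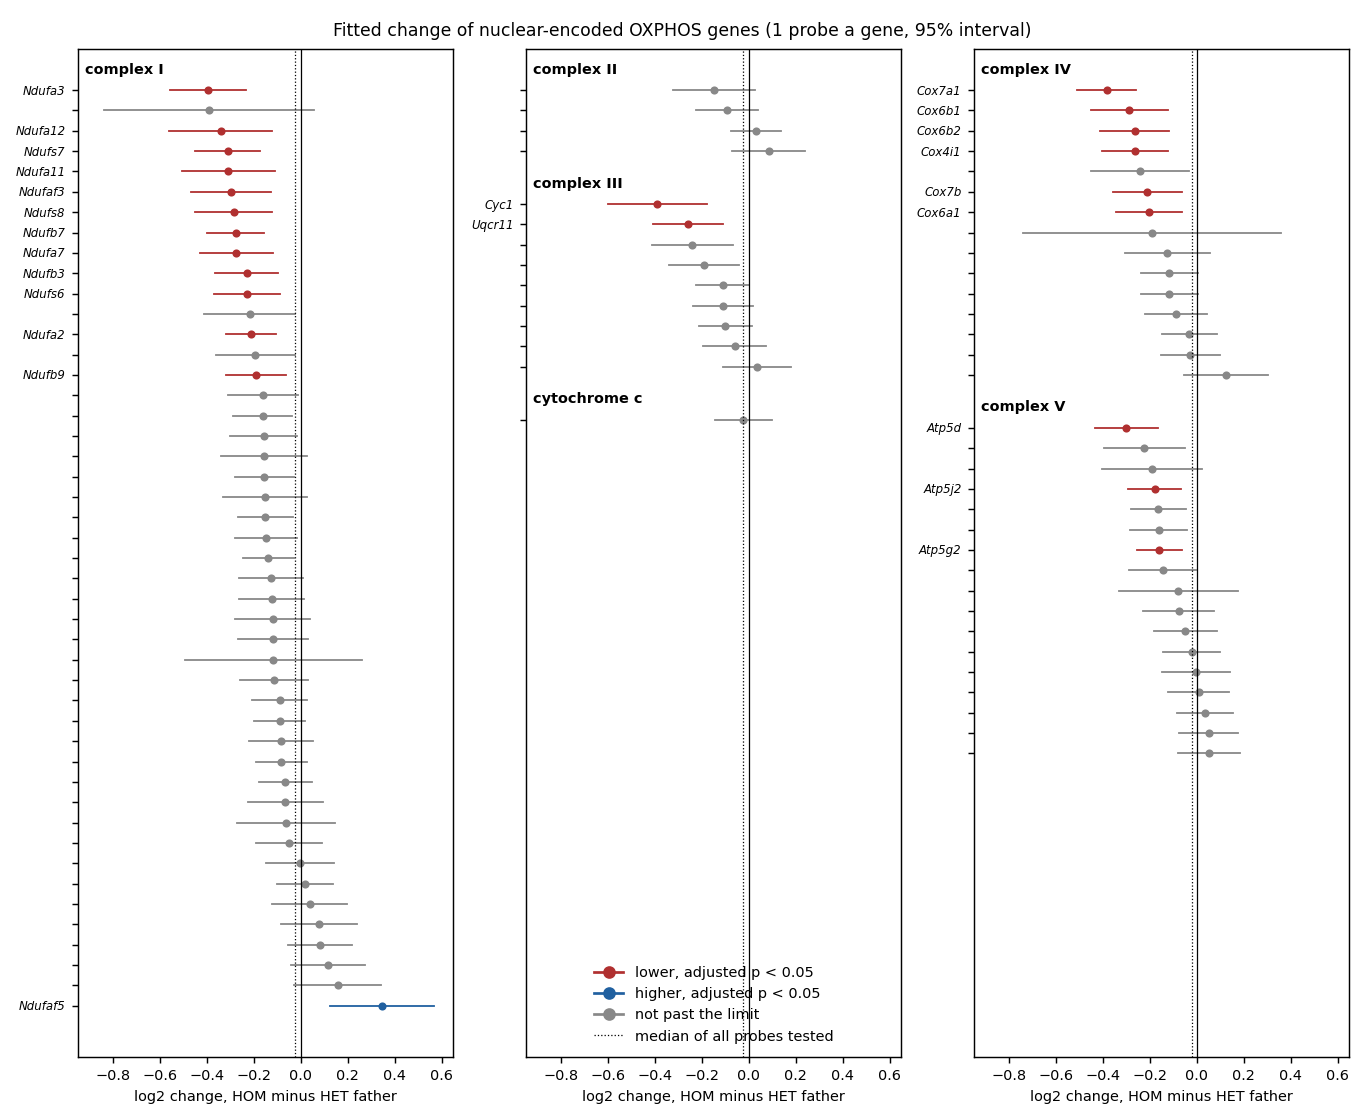
Fitted log2 change (HOM minus HET father) with its 95% interval for 92 genes, the brightest tested probe of each, by complex; the dotted line marks the median of all probes tested, and genes past the limit are labelled. Of these genes 23 fell, 1 rose and 68 did not pass the limit. The change was negative in 77 genes (83.7%, against 54.1% of all probes tested).

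Complex I, the NADH dehydrogenase, had the most members, with 53 tested probes of 46 genes. Of these probes 13 fell and 1 rose, and the median change was -0.13. Among the 7 core subunits of complex I, which carry the flavin and iron-sulphur clusters and the quinone site, all changes were negative. Of these genes 2 fell (28.6%). *Ndufs7*, an iron-sulphur subunit beside the quinone site, had a signal of 5.83, 5.95, 5.71 and 5.84 in HOM father replicates 1 to 4 and 6.10, 6.12, 6.19 and 6.16 in HET father replicates 1 to 4. The groups did not overlap, and the fall was 0.31 on the log2 scale (SE 0.06, adjusted p = 0.0102), or 1.24-fold. *Ndufs8*, another iron-sulphur subunit, measured 2.26, 2.54, 2.29 and 2.29 against 2.61, 2.59, 2.68 and 2.66 in the same order. Here too the groups were separate, with HOM father replicate 2 nearest to the HET father embryos, and the change was -0.29 (SE 0.07, adjusted p = 0.0269). Among the core subunits that did not pass, *Ndufv1*, which binds NADH, changed by -0.16 (adjusted p = 0.0722), *Ndufs3* by -0.15, *Ndufs1* by -0.09 and *Ndufv2* by -0.07.

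Accessory subunits surround this core and stabilise it, and 9 of 29 such genes fell, 0 rose (3 had a positive change) and the median was -0.16. *Ndufa3* had the widest change of any gene in the complex. Its signal was 5.15, 5.39, 5.10 and 5.19 with a HOM father and 5.62, 5.57, 5.66 and 5.58 with a HET father, again with no overlap. It fell by 0.40 (SE 0.07, adjusted p = 0.00691), 1.32-fold. *Ndufb7*, an accessory subunit on the intermembrane-space side, was tighter, at 5.30, 5.41, 5.30 and 5.41 against 5.68, 5.56, 5.67 and 5.62. All 4 HOM father values lay below all 4 HET father values, by 0.28 on average (SE 0.05, adjusted p = 0.00956). *Ndufa12* fell by 0.34 (adjusted p = 0.0392), a value set partly by HET father replicates 3 and 4 at 5.73 and 5.68, since replicate 2 was at 5.34 and the highest HOM father embryo at 5.29. *Ndufa11*, a membrane subunit, fell by 0.31 (adjusted p = 0.039) and *Ndufa7* by 0.28 (adjusted p = 0.0246). The further falls were smaller, at *Ndufb3* (-0.23), *Ndufs6* (-0.23), *Ndufa2* (-0.21) and *Ndufb9* (-0.19). At the other end *Ndufb2* changed by 0.12 and *Ndufa8* by 0.08, neither past the limit.

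*Ndufa4*, named for complex I but since assigned to complex IV, changed by -0.00 with a 95% interval of -0.15 to 0.14. Its hypoxia-responsive paralogue *Ndufa4l2* had a change of -0.39, but its signal spread from -0.55 to 0.24 with a HOM father and from 0.21 to 0.68 with a HET father. The groups overlapped and the test was not passed (SE 0.19, adjusted p = 0.191).

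The assembly factors of complex I, which build the enzyme without staying in it, moved in both directions, with 4 negative and 4 positive changes over 8 genes. *Ndufaf3*, which acts early in assembly, measured -0.08, 0.18, 0.01 and -0.04 with a HOM father and 0.23, 0.31, 0.43 and 0.28 with a HET father. The groups were separate and the change was -0.30 (SE 0.07, adjusted p = 0.0268). *Ndufaf5*, which modifies NDUFS7 during assembly, was the only gene of the 92 that rose by its brightest probe. It stood at -1.14, -0.93, -0.94 and -0.68 against -1.21, -1.36, -1.21 and -1.27, a change of 0.34 (SE 0.10, adjusted p = 0.0398). The lowest HOM father embryo was only just above the HET father range, and the rise passed in 1 of the 8 fits without 1 embryo and under 1 of the 4 other scalings.

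**Figure D3:**
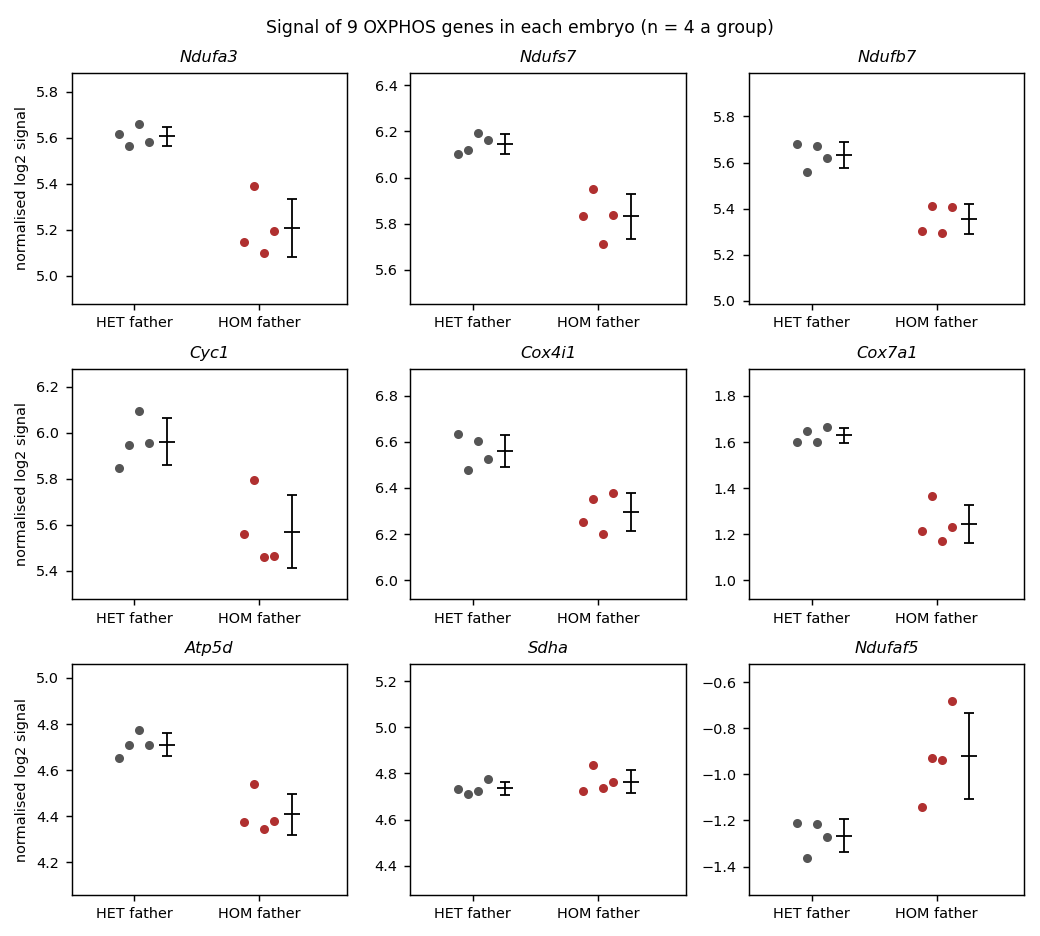
Normalised log2 signal of 9 OXPHOS genes in each embryo, HET father in grey and HOM father in red, with mean ± SD (n = 4) beside the points; every panel spans 1 log2 unit. The groups are apart for all genes but *Sdha*, and *Ndufaf5* alone is higher with a HOM father.

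Complex II, succinate dehydrogenase, which is also an enzyme of the citric acid cycle, changed little. *Sdha*, the flavoprotein, measured 4.72, 4.84, 4.74 and 4.76 with a HOM father and 4.73, 4.71, 4.72 and 4.78 with a HET father. The groups overlapped and the change was 0.03, with a 95% interval of -0.08 to 0.14. *Sdhb*, the iron-sulphur subunit, changed by -0.15 (adjusted p = 0.208) and the membrane anchor *Sdhd* by -0.09 (adjusted p = 0.295). The other anchor, *Sdhc*, had a brightest probe at 0.08 that did not pass and a second probe that fell by 0.20 (adjusted p = 0.0491). Of 6 probes 1 fell (16.7%, against 8.69% of all probes tested) and the median was -0.09. Among the probes between the member quartiles of signal, 472 of 2359 fell, a larger share than in complex II.

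In complex III, the cytochrome bc1 complex, 4 of 15 probes fell (26.7%, against 8.69% of all probes tested). Among the probes between the member quartiles of signal, 472 of 2359 fell, a share nearer to that of complex III. The difference between these 2 shares was not tested. Rises in complex III numbered 0 (3 probes had a positive change) and the median was -0.11. *Cyc1*, the haem-bearing cytochrome c1, measured 5.56, 5.80, 5.46 and 5.46 with a HOM father and 5.85, 5.95, 6.09 and 5.96 with a HET father. HOM father replicate 2 came within a small distance of the lowest HET father embryo without reaching it. *Cyc1* fell by 0.39 (SE 0.09, adjusted p = 0.0211), or 1.31-fold. The small subunit *Uqcr11* measured 5.49, 5.64, 5.39 and 5.57 against 5.82, 5.71, 5.82 and 5.79, and it fell by 0.26 (SE 0.06, adjusted p = 0.0269) with separate groups. The 3 probes of *Uqcr10*, another small subunit, had changes of -0.31 to -0.24, and 2 of them passed while the brightest did not (adjusted p = 0.0557). The catalytic Rieske protein *Uqcrfs1* changed by 0.03 (95% interval -0.11 to 0.18), and the core proteins *Uqcrc1* and *Uqcrc2* by -0.11 and -0.10, none of which passed. Cytochrome c itself (*Cycs*), the carrier between complexes III and IV, changed by -0.02 at its brightest probe, with an interval of -0.14 to 0.10, and 0 of its 3 probes passed.

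Complex IV, cytochrome c oxidase, had 7 falls and 1 rise among 20 probes and a median of -0.15. Several of its subunits have tissue isoforms. Of the general forms, *Cox4i1*, the largest nuclear subunit, measured 6.25, 6.35, 6.20 and 6.38 with a HOM father and 6.63, 6.48, 6.60 and 6.53 with a HET father. The groups did not overlap and it fell by 0.26 (SE 0.06, adjusted p = 0.0203). *Cox6b1*, which faces cytochrome c, measured 2.93, 3.22, 3.0 and 3.05 against 3.30, 3.28, 3.38 and 3.39. It fell by 0.29 (SE 0.07, adjusted p = 0.0255), with HOM father replicate 2 again nearest to the other group. *Cox7b* and *Cox6a1* fell by 0.21 each, close to the limit (adjusted p = 0.0498 and 0.0491). *Cox5a* (-0.12), *Cox5b* (-0.12), *Cox8a* (-0.09), *Cox6c* (-0.03), *Cox7a2* (-0.13) and the supercomplex factor *Cox7a2l* (-0.03) did not pass.

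Among isoforms known from particular tissues, *Cox7a1*, the heart and skeletal muscle form, had the lowest adjusted p of any member. It measured 1.21, 1.37, 1.17 and 1.23 with a HOM father and 1.60, 1.65, 1.60 and 1.67 with a HET father. These groups were well apart, and the change was -0.39 (SE 0.05, adjusted p = 0.00285), 1.31-fold. *Cox6b2*, known from testis, measured -0.39, -0.26, -0.49 and -0.42 against -0.11, -0.11, -0.21 and -0.06. It fell by 0.27 (SE 0.06, adjusted p = 0.0238), and its groups were separate by a small margin. The other muscle isoform, *Cox6a2*, did not pass. Its change of -0.19 had a 95% interval of -0.74 to 0.36, and HOM father replicate 2 lay alone at -2.46 while the other 7 embryos lay between -1.57 and -1.28. *Cox4i2*, a form known from lung, changed by -0.24 (adjusted p = 0.0974).

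Complex V, the ATP synthase, had 5 falls (18.5%) and 2 rises (7.41%) among 27 probes and a median of -0.08. Of all probes tested 8.69% fell and 12.3% rose. Among the probes between the member quartiles of signal 5.38% rose, and 472 of 2359 fell, a larger share than in complex V. In its catalytic F1 head 1 of 5 genes fell. That gene, *Atp5d* (the delta subunit of the central stalk), measured 4.37, 4.54, 4.34 and 4.38 with a HOM father and 4.65, 4.71, 4.77 and 4.71 with a HET father. It fell by 0.30 (SE 0.06, adjusted p = 0.0103), and the groups were separate. The alpha and beta subunits, which form the catalytic ring, did not pass. *Atp5a1* changed by -0.00 (95% interval -0.15 to 0.14) and *Atp5b* by 0.03 (-0.09 to 0.15). Among 12 genes of the membrane part and the stalks, *Atp5j2* fell by 0.18 (adjusted p = 0.0371) and by 0.20 at its other probe, and *Atp5g2*, 1 of the genes of the proton-carrying c ring, fell by 0.16 (adjusted p = 0.0304). The other c-ring genes *Atp5g1* (-0.08) and *Atp5g3* (-0.02) and the peripheral stalk gene *Atp5o* (0.05) did not pass.

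**Figure D4:**
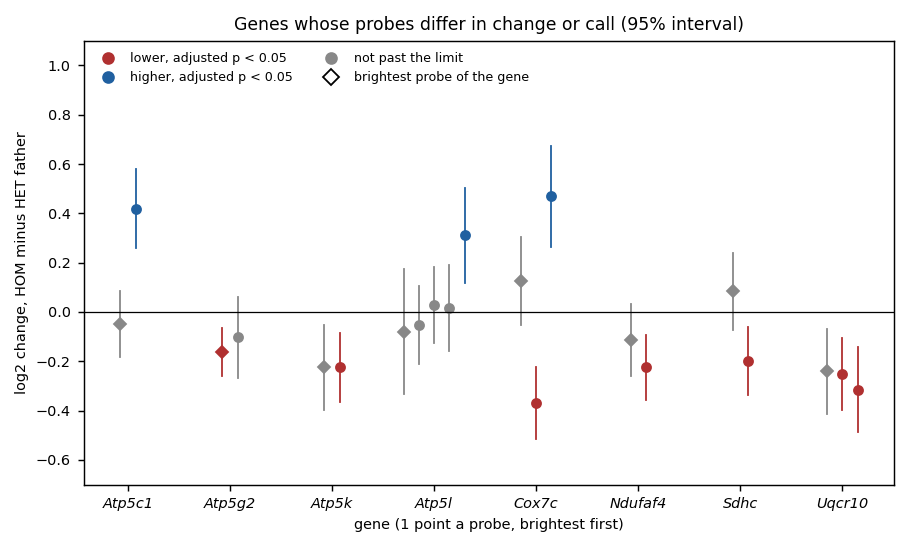
Log2 change (HOM minus HET father) with its 95% interval for each tested probe of the 8 genes whose probes differ in call or by more than 0.5, the brightest probe of a gene drawn first as a diamond. *Cox7c* has 1 probe below 0, 1 above 0 and its brightest near 0.12, and all but 1 of the rises past the limit in the gene family are among these secondary probes.

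In 24 genes more than 1 probe was tested, and in 8 of them the probes differed in call or by more than 0.5. The widest disagreement was in *Cox7c*, a small complex IV subunit. Probe A_55_P1999841 measured 4.69, 4.89, 4.67 and 4.81 with a HOM father and 5.11, 5.08, 5.16 and 5.19 with a HET father, a fall of 0.37 (SE 0.06, adjusted p = 0.006). Probe A_55_P2081005 went the opposite way, from -1.93, -2.16, -2.24 and -2.08 with a HET father to -1.68, -1.54, -1.78 and -1.51 with a HOM father, a rise of 0.47 (SE 0.09, adjusted p = 0.00955). The groups were separate at both probes, while the brightest probe, A_55_P1999838, overlapped between groups and changed by 0.12 (adjusted p = 0.295). For *Atp5c1*, the gamma subunit that rotates within the head, probe A_55_P2150906 measured 4.30, 4.40, 4.18 and 4.27 with a HOM father and 4.00, 3.83, 3.88 and 3.77 with a HET father. It rose by 0.42 (SE 0.07, adjusted p = 0.00549), whereas the brightest probe changed by -0.05 (adjusted p = 0.581). For *Atp5l*, a membrane subunit, 1 of 5 probes rose, by 0.31 (adjusted p = 0.034), and the other 4 changed by -0.08 to 0.03 without passing. The *Sdhc* probes also had changes of opposite sign, of which the fall passed. For *Ndufaf4*, *Uqcr10*, *Atp5g2* and *Atp5k* all changes were negative and the probes differed in which of them passed the limit. Many OXPHOS genes have retrotransposed copies elsewhere in the genome, and whether a probe reads the gene, a copy or 1 transcript form was not tested, so the changes of these 8 genes are uncertain.

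Promoters were available in the RefSeq table (build GRCm38.p6) for 77 of the 95 genes, from 250 bases before to 50 bases after the start. Short motifs of factors known to control mitochondrial genes were searched on both strands. GCGCATGCG (NRF-1) was found in 11 of the 77 genes (14.3%), against 2.61% of 17492 protein-coding genes. AAGATGGCG (YY1) was found in 8 (10.4%, against 2.14%), TCAAGGTCA (ERR) in 2 (2.6%, against 0.377%) and CCGGAAGT (GABPA) in 5 (6.49%, against 5.69%). None of these motifs contains another, although GCGCATGCGC holds the NRF-1 letters on both strands. The median change was -0.11 in the 11 genes with the NRF-1 letters and -0.13 in the 64 tested genes without them. It was -0.12 with the YY1 letters and -0.13 without. The sequences of 4 called genes are shown because they hold such matches and include both directions of change, *Ndufa11*, *Uqcr11* and *Ndufs7* lower and *Ndufaf5* higher with a HOM father. Capitals mark the matches, and each sequence runs 5′ to 3′ on the strand of its gene. The intervals are chr17:56717512-56717811 (+) for *Ndufa11*, chr10:80406772-80407071 (-) for *Uqcr11*, chr10:80249199-80249498 (+) for *Ndufs7* and chr2:140170396-140170695 (+) for *Ndufaf5*.
Ndufa11: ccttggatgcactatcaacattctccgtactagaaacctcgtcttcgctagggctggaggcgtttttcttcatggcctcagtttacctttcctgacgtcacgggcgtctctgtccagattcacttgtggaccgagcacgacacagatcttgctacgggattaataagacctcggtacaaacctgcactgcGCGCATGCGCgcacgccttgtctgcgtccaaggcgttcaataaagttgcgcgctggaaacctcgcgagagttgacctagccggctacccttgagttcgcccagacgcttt
Uqcr11: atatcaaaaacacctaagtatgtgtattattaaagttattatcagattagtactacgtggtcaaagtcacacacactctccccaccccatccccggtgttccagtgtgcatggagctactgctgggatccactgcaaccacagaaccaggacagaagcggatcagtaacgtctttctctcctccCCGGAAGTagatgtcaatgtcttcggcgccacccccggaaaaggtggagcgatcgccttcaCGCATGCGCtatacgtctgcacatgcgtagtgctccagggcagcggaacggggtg
Ndufs7: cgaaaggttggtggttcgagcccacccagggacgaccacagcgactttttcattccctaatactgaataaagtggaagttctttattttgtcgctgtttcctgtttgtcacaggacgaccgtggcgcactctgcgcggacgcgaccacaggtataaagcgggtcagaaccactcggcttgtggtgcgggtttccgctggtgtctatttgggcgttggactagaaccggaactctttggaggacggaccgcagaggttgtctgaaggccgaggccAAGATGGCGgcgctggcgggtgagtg
Ndufaf5: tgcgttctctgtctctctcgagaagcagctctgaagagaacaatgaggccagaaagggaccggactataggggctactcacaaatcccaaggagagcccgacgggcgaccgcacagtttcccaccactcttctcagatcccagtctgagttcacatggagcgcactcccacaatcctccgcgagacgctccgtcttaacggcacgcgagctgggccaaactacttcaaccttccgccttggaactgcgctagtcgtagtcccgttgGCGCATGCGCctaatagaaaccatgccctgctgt
The NRF-1 letters thus stood before the start in *Ndufa11* and across it in *Uqcr11*, which fell, and after it in *Ndufaf5*, which rose. *Uqcr11* also held the GABPA letters, and *Ndufs7* the YY1 letters after its start. *Ndufa3* and *Cox7a1*, both among the falls with the lowest adjusted p, had none of the 4 motifs in this window.

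Sex was balanced over the groups and slides. With father as a covariate, limma called 0 of 124 member probes between female and male embryos at an adjusted p below 0.05 (0.121% of all probes were called), and the lowest adjusted p of a member was 0.913. An unadjusted p below 0.05 was reached by 5 member probes. Called members also numbered 0 for the interaction of father and sex (0.0639% of all probes were called), and 0 members had an unadjusted p below 0.05. With 2 embryos for each combination of father and sex, this last test has little precision.

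Other mitochondrial and metabolic lists were counted in the same fit, by the brightest tested probe of each gene. Of the mitochondrial ribosomal proteins, which translate the subunits encoded in mitochondrial DNA, 22 of 77 fell, 1 rose and the median change was -0.14. The widest were *Mrps12*, which fell by 0.57 (adjusted p = 0.00421), *Mrps11*, which fell by 0.37, and *Mrpl34*, which fell by 0.36, while *Mrpl1* rose by 0.22. Of the citric acid cycle and pyruvate dehydrogenase genes 3 of 17 fell (among them *Dlst* by 0.25 and *Sucla2* by 0.20), 0 rose (6 had a positive change) and the median was -0.10. Glycolytic genes had a median of -0.18, with 5 of 21 lower, among them *Pfkl* and *Tpi1* (both by 0.32) and the lactate transporter *Slc16a3* (by 0.28), and 0 higher (3 had a positive change).

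OXPHOS assembly factors outside the rule had 4 falls and 1 rise among 38 genes, with a median of -0.06. For scale, 8.69% of all probes tested fell and 12.3% rose. *Sco2*, a copper chaperone of complex IV, fell by 0.37 (adjusted p = 0.00242), *Uqcc3*, for complex III, by 0.30 and *Cox19* by 0.20. The rise was at *Cox17*, another copper chaperone, whose probe was well above background on 4 HOM father arrays and on 0 HET father arrays. It passed the filter on dim signals only through the HOM father arrays, so its call as a rise is not independent of that filter. Only a bound can be given for it, at least 2.21-fold higher with a HOM father. For this bound the HET father signal on each array is replaced by the lowest signal among probes well above background. Of 23 genes of mitochondrial biogenesis and mitochondrial DNA upkeep, 2 fell (*Gabpb1* and *Phb2*, both by 0.21) and 1 rose (the coactivator *Ppargc1b*, by 0.40), with a median of -0.00. *Nrf1*, *Tfam* and *Yy1* changed by 0.05, -0.14 and 0.03 and did not pass.

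Markers of the cell types an E8.5 embryo holds were present. All 8 cardiac, 7 primitive erythroid, 7 visceral endoderm and 5 neural markers were well above background on every array, as were 4 of 5 paraxial mesoderm markers. Cardiac markers had a summed signal (log2) of 7.45 to 7.81 with a HOM father and 7.70 to 7.82 with a HET father, with 6 of 8 changes negative, a median of -0.13 and 1 gene lower (*Myl7*, by 0.25). Primitive erythroid markers summed to 9.26 to 9.63 and 9.62 to 9.68, with 6 of 7 changes negative, a median of -0.29 and 1 gene lower. Visceral endoderm markers summed to 8.77 to 9.09 and 8.95 to 9.07, with 7 of 7 negative, a median of -0.16 and 1 gene lower (*Apoa1*, by 0.41). Neural markers summed to 3.93 to 4.48 and 4.16 to 4.50 with 4 of 5 negative, a median of -0.07 and 0 past the limit. Paraxial mesoderm markers summed to 3.82 to 3.97 and 3.89 to 4.15, with 4 of 5 negative, a median of -0.16 and 1 gene lower (*Tbx6*, by 0.32). Endothelial markers summed to 3.60 to 3.96 and 3.77 to 3.88, with 1 of 4 negative, a median of 0.05 and 0 past the limit. Trophoblast markers summed to 4.03 to 4.73 and 4.48 to 5.11, with 2 of 4 negative and a median of 0.24. Of these *Gcm1* fell by 1.07 (adjusted p = 0.0217), the others did not pass, and *Tpbpa* was well above background on 0 arrays. Of the maternal decidua markers *Dcn*, *Igfbp1* and *Prl8a2* were above background on every array and *Prl3c1* on 0, and their sum was 2.29 to 4.66 with a HOM father and 1.72 to 2.81 with a HET father, with 2 of 3 negative, a median of -0.01 and 0 past the limit. These ranges overlap for every marker list, though for the primitive erythroid markers only between 9.62 and 9.63. For scale, 8.69% of all probes tested fell and 12.3% rose. The part of cell composition in the changes of the OXPHOS genes was not tested.

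**Figure D5:**
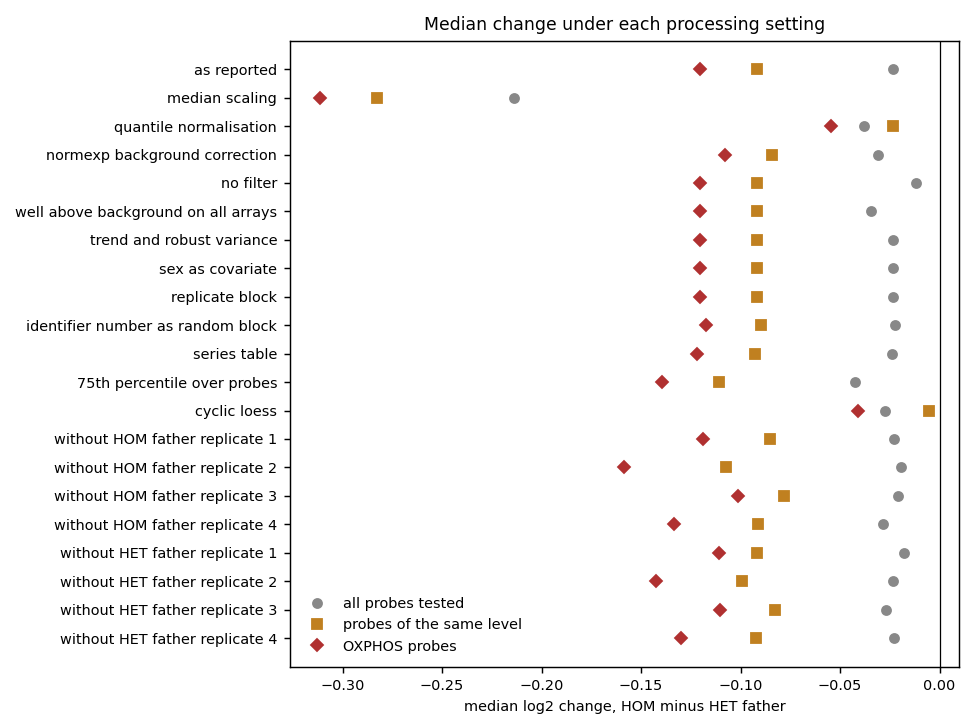
Median log2 change (HOM minus HET father) of the OXPHOS probes (red), of all probes tested (grey) and of probes whose mean signal lay between the OXPHOS quartiles (orange) under each way of processing the arrays and without each embryo. The OXPHOS median was between -0.31 and -0.04 throughout. It differed by -0.05 to -0.02 from that of the probes in this signal range, which include the OXPHOS probes within it.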

How the data were processed

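RNA of 8 E8.5 embryos, 0.2 µg each, was hybridised to 1 Agilent array per embryo. The deposited spot intensities on a linear scale were made by the authors with Agilent Feature Extraction 11.0.1.1, which subtracts background and removes spatial trends, and no scaling between arrays had been applied. The deposited flags of each spot (other values, 0 or 1) marked outliers, which were left out, and spots well above background. Log2 intensities were scaled to the 75th percentile of each array over 59305 non-control spots, and spots of a probe were averaged. Accessions were matched to RefSeq symbols (GRCm38.p6, 48.9% of probes). Probes were tested where at least 4 of 8 arrays had them both above the 20th percentile of the array and marked as well above background. limma 3.58.1 in R 4.3.3 (lmFit, eBayes, two-sided, Benjamini-Hochberg over all probes tested) compared fathers, then sexes with father as covariate, then their interaction, and was tested on simulated data.

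A gene with several tested probes was represented by the brightest. Genes were named as the widest changes past an adjusted p of 0.05 (up to 15 in each direction), a core set of subunits, tissue isoforms, genes whose probes differed, and up to 3 genes in each direction of the comparison lists, which were assembly factors, mitochondrial ribosomal proteins, citric acid cycle, glycolysis, mitochondrial biogenesis and markers of 8 cell types. The members, lists and motifs were chosen with earlier results of these data known. Alternatives were median scaling, quantile normalisation, normexp background correction (offset 50, on the median spot intensity), other filters and variance models, sex as a covariate, 2 blocks, the authors' rounded table of the same intensities (largest relative difference 0.5%) and each embryo left out. Cyclic loess and a 75th percentile over probes were added after seeing the data. Values of a few single genes are not reported here.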

Additional observations from a re-analysis of the deposited data

Results flagged for a closer look

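In 3 of 132 groups of 4 embryos that were examined, 1 embryo lay far from the other 3 by Dixon's test, and chance gives about 6.6. In all 3 cases it was HOM father replicate 2, which was the highest of its group. The *Ndufs1* signal was 5.19 there and 5.08 to 5.10 in the other HOM father embryos. The *Ndufs8* signal was 2.54 against 2.26 to 2.29, and that of *Uqcr10* probe A_55_P2136765 was 3.79 against 3.49 to 3.54.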

How the results depend on the processing

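No member reached the study's limits under any alternative, and 0 were called by sex or by the interaction under those run for these. The number of member probes past an adjusted p of 0.05, 34 as reported, was 91 after median scaling (90 lower, 1 higher), 20 after cyclic loess (14 lower), and 5 both with no filter on dim probes and with the replicate number as a block (3 lower and 2 higher each). The cause was not tested. Without 1 embryo it was 9 to 39, with 7 to 36 lower and 2 to 3 higher. The member median, -0.12 as reported, was -0.31 after median scaling, -0.055 after quantile normalisation, -0.041 after cyclic loess and -0.16 to -0.10 without 1 embryo. Of the 30 falls, 30 were kept after median scaling, 25 after normexp, 20 after quantile normalisation and with the identifier number as a random block, 14 after cyclic loess and 3 with the replicate block. Same-numbered embryos deviated from their group means with correlations of 0.19, -0.09, -0.13 and 0.15. Over all pairs of a HOM and a HET father embryo the correlations ran from -0.19 to 0.21, and not every embryo correlated best with its own number. With 4 embryos a group, these values cannot decide whether replicate numbers pair the embryos. Among the named probes, signs changed only for values that did not pass as reported (tested under all alternatives run). The log2 differences after median scaling were *Sdha* -0.16, *Sdhc* -0.11, *Uqcrfs1* -0.16, *Cox7c* -0.066, *Atp5b* -0.16, *Atp5o* -0.14 and *Atp5l* -0.16 and -0.18. After quantile normalisation they were *Ndufa4* 0.070, *Ndufv2* 0.015, *Cox5a* 0.0016, *Cox6c* 0.015, *Cox7a2l* 0.025, *Cox8a* 0.028, *Atp5a1* 0.075, *Atp5c1* 0.030, *Atp5g1* 0.012, *Atp5g3* 0.090, *Cycs* 0.055 and *Atp5l* 0.022. After cyclic loess they were *Ndufa4* 0.088, *Ndufs1* 0.0027, *Ndufv2* 0.029, *Sdhd* 0.0064, *Cox6c* 0.065, *Cox7a2l* 0.073, *Cox8a* 0.026, *Atp5a1* 0.11, *Atp5c1* 0.053, *Atp5g1* 0.033, *Atp5g3* 0.094, *Cycs* 0.084, *Atp5g2* 0.0076 and *Atp5l* 0.018 and 0.039. After normexp they were *Ndufa4* 0.12, *Sdha* -0.020, *Cox5a* 0.0080, *Cox7a2* 0.0018, *Atp5b* -0.030, *Cycs* 0.12 and *Atp5l* 0.061 and -0.056. With the identifier number as a random block *Ndufa4* was 0.0071, and with the percentile taken over probes 1 *Atp5l* probe was -0.0038. Across the fits without 1 embryo the values were *Ndufa4* -0.035 to 0.041, *Uqcrfs1* -0.0058 to 0.062, *Cox6a2* -0.32 to 0.068, *Cox7a2l* -0.054 to 0.0027, *Atp5a1* -0.049 to 0.029, *Atp5g3* -0.050 to 0.010, *Cycs* -0.050 to 0.013, *Atp5l* -0.019 to 0.066 and *Atp5l* -0.042 to 0.052, the last pair from different probes. Cyclic loess and the percentile over probes were chosen after seeing the data. Signal over background limits 3 members, *Cox7b2*, *Cox8b* and *Cox8c*, which were not tested.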
